A study of Mus musculus with 20 samples.

Results

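DNA replication and G1/S genes are a hand-written list of 50 genes whose products license, fire, copy and repair replicating DNA or drive cells from G1 into S phase. They were found by symbol, and all 50 were among the 21963 entries of the count table and among the 11666 genes that passed the filter on low counts. RNA had been sequenced from bone marrow-derived macrophages, which are grown from mouse marrow in medium conditioned by L929 cells. Mice were 15 to 25 weeks old, and the study asked which genes respond when uptake of Ca2+ into mitochondria or the Ca2+ signal itself is reduced. WT mice were C57BL/6. WT untreated macrophages gave 4 libraries, and WT macrophages given zymosan, a yeast cell wall particle, for 3 h gave 5. WT macrophages loaded with BAPTA-AM at 10 uM, a Ca2+ chelator that enters cells, and then given zymosan for 3 h gave 4 libraries. Mcu-/- macrophages came from mice with a floxed Mcu, the gene of the pore of the mitochondrial Ca2+ uniporter, removed by Cre under Cx3cr1, a gene of the myeloid lineage. They gave 4 untreated libraries and 3 with zymosan for 3 h, and no group combined Mcu-/- with BAPTA-AM.

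Before S phase, the origin recognition complex with Cdc6 and Cdt1 loads the ring of Mcm2 to Mcm7 onto DNA, and Cdc45 and the GINS complex then turn that ring into a moving helicase. Primase and the polymerases copy the strands with the Pcna clamp, which the Rfc complex loads, while ribonucleotide reductase and thymidine kinase supply nucleotides and Chaf1 rebuilds chromatin. E2F factors and cyclin E switch these genes on together at the border of G1 and S, and macrophages grown in the presence of Csf1 can still divide. Pcna also serves DNA repair, so its RNA is not a marker of S phase alone.

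Each library held between 14.4 and 24 M counts. Levels below are in CPM, counts per M of the TMM-scaled library size. Mcu was at 6.10 to 9.54 CPM in the 13 WT libraries and at 2.63 to 4.05 in the 7 Mcu-/- libraries. Untreated Mcu-/- replicate 4 stood apart: its chi-square per gene against replicates 1 to 3 was 212 to 220.2, against 1.60 to 6.33 in all other pairs of replicates. It was left out of the fit, which then had a biological coefficient of variation of 3.56% over 19 libraries against 12.4% over all 20, and its values are given on their own. Several markers moved with it. Col1a1, a fibroblast collagen, was at 13.0 CPM in replicate 4 and at 18.3 to 25.6 in the 3 Mcu-/- zymosan libraries, against 0.329 to 2.50 elsewhere. Summed over 5 fibroblast markers the level was 28.3 CPM in replicate 4, 44.0 to 52.3 in Mcu-/- zymosan and 1.10 to 6.63 in the other groups. The sum was nearly all collagen RNA, since Dcn and Pdgfra were at 0.398 CPM or less in every library. The 8 macrophage markers were all detected and went both ways: with zymosan 5 were higher in Mcu-/- than WT macrophages (Csf1r, Cd68, Fcgr1, Mertk and Cd14) and 3 lower (Adgre1, Itgam and Lyz2). Cd68, a lysosomal protein of macrophages, was at 970.5 CPM in replicate 4 and 1142 to 1174 in Mcu-/- zymosan, against 209 to 321 elsewhere. Adgre1, which encodes the macrophage marker F4/80, was at 2462 and at 2749 to 2909 CPM, against 3854 to 5059 elsewhere. Sums of the 8 markers, of which the abundant Lyz2 and Adgre1 are the largest part, were 8554 CPM in replicate 4, 10410 to 10760 in Mcu-/- zymosan, 14410 to 14770 in untreated Mcu-/- replicates 1 to 3 and 13350 to 16390 in WT libraries. Neutrophil and granulocyte precursor markers summed to 0.159 CPM in replicate 4, 0.452 to 0.589 in Mcu-/- zymosan and 2.14 to 5.58 elsewhere, and stem and progenitor markers to 3.45, 3.41 to 4.67 and at most 1.71 CPM. Most of the stem and progenitor sum in replicate 4 and Mcu-/- zymosan was Cd34, at 3.17 and 2.59 to 3.38 CPM. Kit was at 0.452 CPM or less in every library, and Gata2 was at 0.159 CPM in replicate 4. In Mcu-/- zymosan Gata2 was at 0.589, 0.848 and 1.19 CPM, against 0.109 to 0.554 CPM in WT zymosan. B cell markers summed to 18.76 CPM in replicate 4, 13.0 to 13.58 in Mcu-/- zymosan and 30.75 to 55.8 elsewhere, mostly Cd79b. T cell markers summed to 3.53, 3.164 to 3.649 and 0.918 to 1.862 CPM, mostly Cd4. Dendritic cell markers summed to 0.912 CPM in replicate 4, 10.65 to 11.87 in Mcu-/- zymosan and 8.993 to 10.02 in WT zymosan. The 4 erythroid globin genes and Klf1 summed to 0.712 CPM at most. The part of these markers in the results below was not tested, and in RNA from whole cultures fewer dividing cells and less RNA per cell cannot be told apart. No batch is given for the libraries.

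Promoter windows of 300 bases, from 250 before to 50 after the RefSeq start on GRCm38.p6, were at hand for 42 of the 50 members. A core E2F motif, spelled TTCCCGC or TTCGCGC or with the letters TTGCCGC or TTGGCGC and searched on both strands, was in 25 of these 42 windows (59.5%) and in 2618 of the windows of 27025 genes (9.69%). The CCAAT motif was in 25 of 42 (59.5%) against 37.9% of all, and the CHR letters TTTGAA, a motif known from mitotic genes, in 5 of 42 (11.9%) against 18.1%. Promoters of 4 members are printed below to show how such windows look: Mcm6 was higher in Mcu-/- macrophages with zymosan, while Mcm10, Cdc45 and Rfc5 were lower, by the largest difference of their roles between genotypes among members with a window. Capitals mark a match to any of these motifs on either strand, and all 4 genes lie on the minus strand, so each sequence reads 5′ to 3′ along the gene.
Mcm6, chr1:128359656-128359955: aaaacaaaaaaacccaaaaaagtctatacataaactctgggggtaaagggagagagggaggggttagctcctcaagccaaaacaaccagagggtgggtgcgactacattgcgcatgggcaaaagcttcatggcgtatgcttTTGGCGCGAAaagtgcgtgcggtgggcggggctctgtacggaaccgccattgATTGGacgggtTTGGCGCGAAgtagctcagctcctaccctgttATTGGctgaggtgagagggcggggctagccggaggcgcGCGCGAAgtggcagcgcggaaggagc
Mcm10, chr2:5012742-5013041: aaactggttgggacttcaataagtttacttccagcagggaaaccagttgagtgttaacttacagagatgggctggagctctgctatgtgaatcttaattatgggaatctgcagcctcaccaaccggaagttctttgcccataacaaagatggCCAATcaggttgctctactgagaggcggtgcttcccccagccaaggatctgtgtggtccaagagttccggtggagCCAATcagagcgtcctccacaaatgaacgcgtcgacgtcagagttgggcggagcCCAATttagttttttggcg
Cdc45, chr16:18811923-18812222: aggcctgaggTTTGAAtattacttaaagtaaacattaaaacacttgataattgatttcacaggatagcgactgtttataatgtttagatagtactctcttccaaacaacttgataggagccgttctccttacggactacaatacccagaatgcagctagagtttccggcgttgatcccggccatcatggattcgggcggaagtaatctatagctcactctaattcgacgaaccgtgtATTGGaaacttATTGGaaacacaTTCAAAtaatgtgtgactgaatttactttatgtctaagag
Rfc5, chr5:117388974-117389273: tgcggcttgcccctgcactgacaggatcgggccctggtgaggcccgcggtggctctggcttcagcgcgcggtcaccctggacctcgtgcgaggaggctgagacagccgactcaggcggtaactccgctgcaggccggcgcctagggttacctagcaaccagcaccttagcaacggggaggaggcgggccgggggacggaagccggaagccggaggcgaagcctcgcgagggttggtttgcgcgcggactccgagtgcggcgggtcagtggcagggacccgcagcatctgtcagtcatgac
The Mcm6 window held 5 E2F matches, of which 2 overlapping pairs lay from -109 to -100 and from -46 to -37 of the start, and 2 CCAAT matches. Mcm10 held 3 CCAAT matches and Cdc45 held 2 beside 2 CHR matches, and neither held the E2F letters. Rfc5 held none of the 3 motifs. These 4 windows do not stand for the other members: Rrm2, Rrm1, Chaf1a and Uhrf1, also lower in Mcu-/- macrophages with zymosan, held an E2F core. Of the members that were higher there, Rfc1, Rfc3 and Pold3 held one like Mcm6, while Pcna, Mcm2 and Slbp did not. A match is a string of letters in this window and was not tested for binding.

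Zymosan lowered most of these genes in WT macrophages within 3 h. Of the 50 members, 40 were lower and 5 higher than in untreated WT macrophages at an edgeR adjusted p under 0.05, where 41.3% of all genes tested were lower and 37.2% higher (78.5% in either direction). The median log2 fold change of the members was -0.62, beside -0.04 over all genes tested. No zymosan library overlapped with an untreated one in 44 members, which gives an exact two-sided permutation p of 0.0159, the smallest that 5 against 4 libraries allow. How many of all genes did so was not counted, here or below, so such counts only describe the members. With all 20 libraries in the fit 36 members were lower and 5 higher, beside 36.8% and 32.4% of all genes, and the 4 that lost their call were Lig1, Rfc5, Rrm1 and Tk1. The heat map of all members shows these falls beside the few rises.

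**Figure D1:**
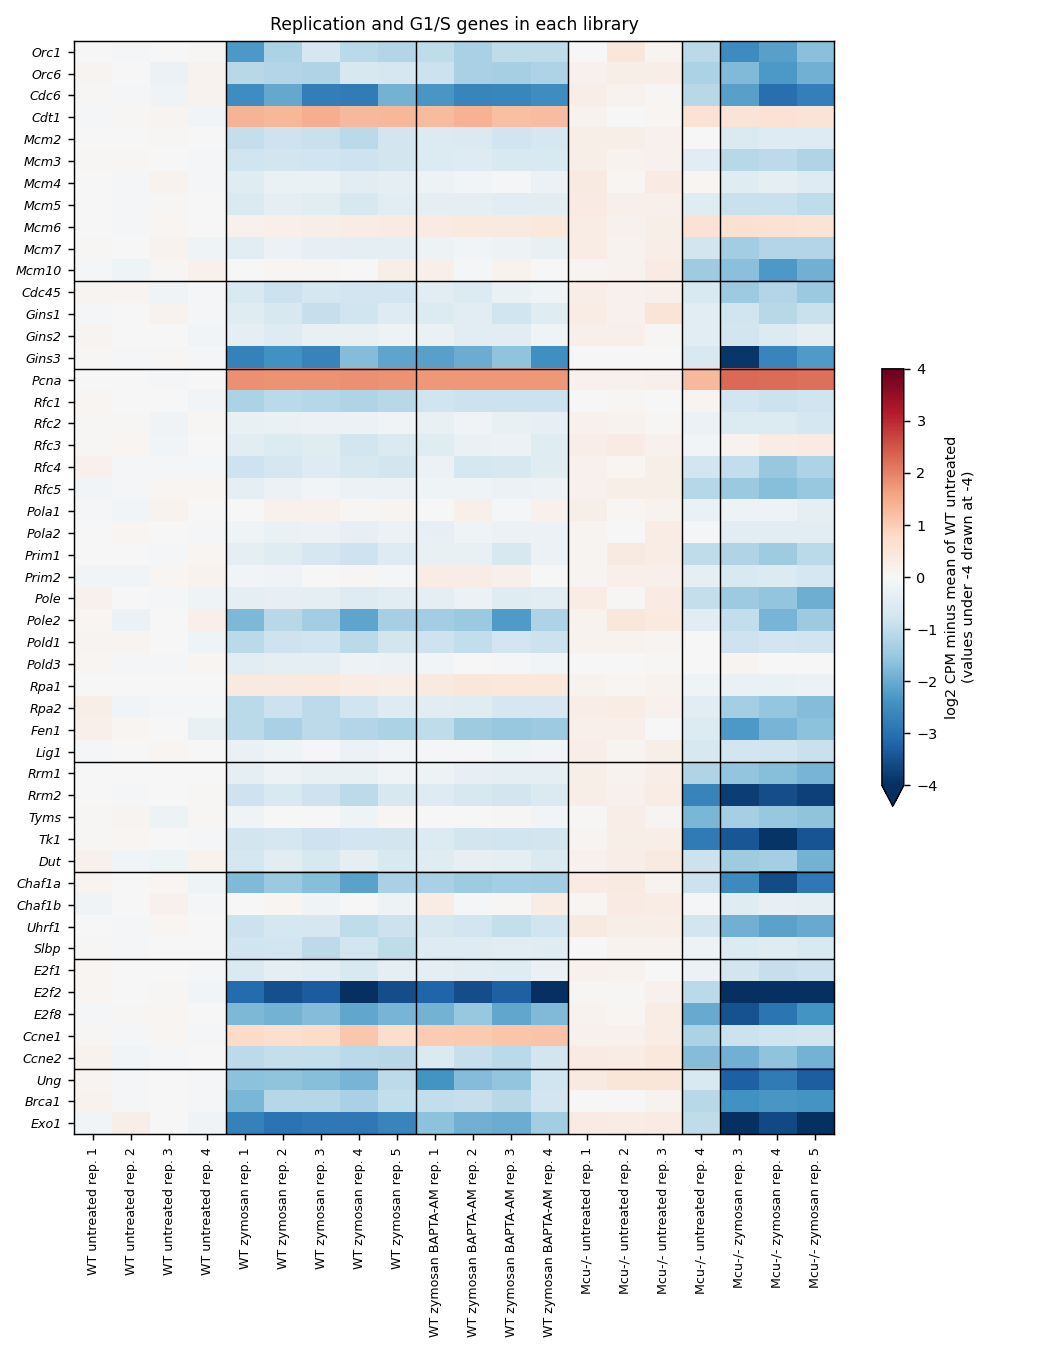
Each row is a member, ordered by role with lines between roles, and each column a library. Colour is log2 CPM minus the mean of the 4 WT untreated libraries. Blue fills most of the WT zymosan columns and is deepest in the 3 Mcu-/- zymosan columns, while Pcna is red there and Mcu-/- untreated replicate 4 differs from replicates 1 to 3.

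Factors that license origins fell unevenly. Cdc6, the ATPase that recruits the Mcm ring, was at 13.6, 13.0, 12.2 and 14.6 CPM in untreated WT macrophages. With zymosan it was at 2.39, 3.20, 1.94, 1.92 and 3.60 CPM. Every zymosan library lay below every untreated one, and Cdc6 fell by 2.35 on the log2 scale (edgeR adjusted p = 8.33e-20 with an SE of 0.12). Its loading partner Cdt1 went the other way, from 44.5, 47.5, 49.4 and 43.0 CPM to 117, 116, 127, 113 and 115 CPM. Cdt1 rose by a log2 of 1.35 (edgeR adjusted p = 6.51e-27 with an SE of 0.04), so the pair that loads the helicase moved in opposite directions. Orc1 and Orc6, subunits of the origin recognition complex, had log2 fold changes of -1.19 and -0.94 and were both lower. Among the subunits of the Mcm ring, Mcm2, Mcm3, Mcm4, Mcm5 and Mcm7 were lower, with log2 fold changes from -0.89 for Mcm2 to -0.36 for Mcm7 and Mcm4.

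Mcm6, on chr1:128331590-128359664, was the 1 ring subunit that was higher. It was at 102, 100.3, 109 and 103 CPM in untreated WT macrophages. With zymosan it was at 117, 120.3, 123, 127 and 129 CPM. The groups did not overlap, and the log2 fold change was 0.25 (edgeR adjusted p = 2.65e-08 with an SE of 0.03). Scaling to library totals in place of TMM moved the median of all genes from -0.04 to -0.53 and turned the log2 fold change of Mcm6 to -0.24, so its rise is one relative to the other genes. Mcm10, which helps to start the helicase, was at 13.0, 12.0, 13.8 and 15.3 CPM untreated and at 13.6, 14.2, 13.8, 13.4 and 16 CPM with zymosan. These ranges overlapped (log2 fold change 0.08, edgeR adjusted p = 0.381 with an SE of 0.08), and scaling to library totals gave -0.41.

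All 4 genes of helicase activation were lower. Cdc45 was at 8.65, 8.65, 7.40 and 7.74 CPM untreated and at 5.35, 4.5, 5.00, 4.76 and 4.77 CPM with zymosan, a fall in every library (log2 fold change -0.74, edgeR adjusted p = 1.11e-08 with an SE of 0.10). Gins2, a GINS subunit and the most abundant of the 4, went from 16.8, 15.5, 16 and 14.5 CPM to 11.9, 11, 12.7, 12.8 and 13.7 CPM. Its groups did not overlap either (log2 fold change -0.34, edgeR adjusted p = 0.000101 with an SE of 0.08). Gins3 fell further, by 2.28 on the log2 scale.

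Pcna dominated the polymerase, clamp and strand maturation genes. It lies on chr2:132249162-132253314 and was at 213, 216, 208 and 213 CPM in untreated WT macrophages. With zymosan it was at 757, 738, 739, 749 and 739 CPM. This 3.51-fold rise was the largest of any member (log2 fold change 1.81, edgeR adjusted p = 1.37e-39 with an SE of 0.03). The loader of the clamp did not rise with it: Rfc1, Rfc2, Rfc3, Rfc4 and Rfc5 were all lower, with log2 fold changes from -1.16 for Rfc1 to -0.22 for Rfc5. Rfc5 was at 22.0, 22.9, 24.7 and 24.8 CPM untreated and at 18.5, 20.003, 22.0, 19.9 and 20.2 CPM with zymosan, so its groups overlapped at 22.0 CPM. Its adjusted p was 0.000492 in the edgeR fit of 19 libraries and 0.271 with all 20. Of the other members of this role, Rpa1, the large subunit that coats single strands, was higher (log2 fold change 0.33), and Pola1 and Prim2, of the primase complex, were not called. With library totals Rpa1 and Pola1 turned in sign. The largest fall in the role was that of Pole2, a subunit of the leading-strand polymerase, at -1.49.

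Nucleotide supply genes were lower in 4 of 5 cases. Rrm2, the S-phase subunit of ribonucleotide reductase on chr12:24708241-24714146, was at 45.4, 43.7, 44.6 and 47.1 CPM untreated and at 25.3, 29.9, 25.6, 22.1 and 29.3 CPM with zymosan. The 2 groups were apart (log2 fold change -0.77, edgeR adjusted p = 4.67e-15 with an SE of 0.06). Rrm1, the large subunit, was at 104, 105, 104 and 103 CPM and then at 80.4, 90.3, 83.8, 83.9 and 95 CPM (log2 fold change -0.26, edgeR adjusted p = 1.14e-06 with an SE of 0.04). Tk1, which salvages thymidine, had a log2 fold change of -0.75, and Tyms, the thymidylate synthase, one of -0.06 that was not called.

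Chromatin, control and repair genes held the deepest falls. E2f2, an activator of the E2F family, was at 15.6, 14.6, 15.3 and 13.7 CPM untreated and at 1.77, 1.29, 1.48, 0.766 and 1.27 CPM with zymosan. This was an 11.2-fold fall (log2 fold change -3.49, edgeR adjusted p = 7.26e-25 with an SE of 0.13). Exo1, an exonuclease of mismatch repair, fell from 5.16, 6.53, 5.56 and 5.05 CPM to 0.854, 0.724, 0.765, 0.766 and 0.887 CPM, or 6.97-fold. E2f1 itself changed less, from 39.0, 36.4, 36.0 and 35.5 CPM to 24.6, 27.9, 27.5, 23.9 and 28.7 CPM (log2 fold change -0.47, edgeR adjusted p = 9.70e-10 with an SE of 0.06). The cyclin E genes diverged. Ccne1 was at 13.8, 12.6, 14.3 and 13.1 CPM untreated and at 22.9, 21.1, 22.6, 28.7 and 21.9 CPM with zymosan (log2 fold change 0.80, edgeR adjusted p = 6.53e-13 with an SE of 0.07), while Ccne2 had a log2 fold change of -1.02. Both kept their direction with library totals.

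Uhrf1, which carries DNA methylation onto the new strand, was at 41.0, 38.6, 43.7 and 41.3 CPM untreated and at 22.9, 25.4, 25.7, 20.1 and 22.7 CPM with zymosan. Chaf1a, a subunit of the histone chaperone of new DNA, was at 19.8, 18.4, 19.4 and 16.2 CPM and then at 5.41, 6.51, 5.71, 4.22 and 7.43 CPM. Brca1, of homologous recombination, was at 17, 14.7, 15.7 and 15.1 CPM and then at 4.44, 7.13, 7.04, 6.35 and 7.87 CPM. None of these groups overlapped, and the log2 fold changes were -0.81, -1.66 and -1.25. Ung, which removes uracil from DNA, fell from 7.24, 6.53, 6.76 and 6.62 CPM to 2.16, 2.22, 2.09, 1.86 and 3.27 CPM (log2 fold change -1.55, edgeR adjusted p = 2.30e-11 with an SE of 0.16).

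With zymosan, Mcu-/- macrophages had less RNA of most members than WT macrophages, and the largest single differences were in the nucleotide supply genes Rrm2 and Tk1. Of the 50, 36 were lower and 7 higher, where 33.7% of all genes tested were lower and 36.4% higher (70.1% in either direction). The median log2 fold change was -0.65 over the members and 0.02 over all genes. Libraries of the 2 genotypes did not overlap in 41 members, an exact two-sided permutation p of 0.0357, the smallest for 3 against 5 libraries. This was not counted over all genes. The fit of all 20 libraries gave the same counts, beside 30.3% lower and 31.8% higher of all genes, with 35 members lower in both fits, since Gins2 lost its call and Pola2 gained one. The collagen genes Col1a1, Col1a2 and Col3a1 were higher in these 3 Mcu-/- libraries than in WT zymosan ones. The other fibroblast markers, Dcn and Pdgfra, were at 0.398 CPM or less. Macrophage markers differed in both directions, with log2 fold changes from -1.66 for Itgam to 1.91 for Cd68.

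Rrm2 was at 3.30, 3.90 and 3.38 CPM in the 3 Mcu-/- zymosan libraries, against 22.1 to 29.9 CPM in the 5 WT ones. This was a 7.49-fold difference (log2 fold change -2.90, edgeR adjusted p = 1.21e-24 with an SE of 0.11). Tk1 was at 3.06, 2.15 and 2.98 CPM, against 19.6, 20.6, 18.3, 19.1 and 19.6 CPM in WT, or 7.09-fold lower (SE of the log2 fold change 0.10, edgeR adjusted p = 1.56e-24). All 5 nucleotide supply genes were lower in Mcu-/- macrophages. Rrm1 was at 34.5, 31.9 and 28.7 CPM, below the lowest WT library at 80.4 CPM (log2 fold change -1.46, edgeR adjusted p = 9.47e-24 with an SE of 0.06). Tyms and Dut, the dUTPase, had log2 fold changes of -1.43 and -1.01. Summed over the 5 genes, the level was 45.8 ± 3.85 CPM (SD, n = 3) in Mcu-/- and 151 ± 9.75 CPM (SD, n = 5) in WT macrophages.

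In the licensing and helicase genes the genotypes differed in both directions. Mcm10 was at 4.18, 2.71 and 3.58 CPM in Mcu-/- macrophages, far below the 13.4 to 16 CPM of WT (log2 fold change -2.02, edgeR adjusted p = 6.38e-18 with an SE of 0.12). It is one of 5 members, with Pola1, Prim2, Tyms and Chaf1b, that zymosan left uncalled in WT macrophages and that were lower in Mcu-/-. Mcm6 was higher, at 157, 155 and 149.7 CPM against 117 to 129 CPM (log2 fold change 0.32, edgeR adjusted p = 4.09e-10 with an SE of 0.04). Mcm2 was also higher, at 31.6, 32.7 and 32.5 CPM against 24.3, 26.2, 25.2, 22.2 and 28.3 CPM (log2 fold change 0.36, edgeR adjusted p = 1.58e-06 with an SE of 0.06). Mcm3, Mcm5 and Mcm7 were lower, with log2 fold changes of -0.34, -0.44 and -0.89, and Mcm4 was not called at -0.10. Cdt1, which zymosan raised in WT, was at 66.4, 69.2 and 66.0 CPM, below the 113 to 127 CPM of WT (log2 fold change -0.81, edgeR adjusted p = 3.35e-18 with an SE of 0.05). Cdc6 was low in both, at 2.94, 1.64 and 1.99 CPM in Mcu-/- (log2 fold change -0.26, edgeR adjusted p = 0.241 with an SE of 0.20).

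Subunits of the ring can be compared per length of their exons, as mean CPM per kb of all exon bases of a gene. In untreated WT macrophages Mcm6 was highest at 22.2, followed by Mcm3 at 18.5, Mcm5 at 15.5, Mcm4 at 12.4, Mcm7 at 10.9 and Mcm2 at 6.72. In Mcu-/- macrophages with zymosan Mcm6 was at 33.0 CPM per kb, and the other subunits were at 4.58 to 9.04. WT macrophages with zymosan had a like spread, with Mcm6 at 26.4 CPM per kb and the others at 3.63 for Mcm2 to 11 for Mcm5. This scale takes every annotated exon as used.

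Cdc45 was at 2.94, 3.62 and 2.88 CPM in Mcu-/- macrophages with zymosan, below all 5 WT libraries (log2 fold change -0.63, edgeR adjusted p = 6.34e-05 with an SE of 0.13). Gins2 was at 9.48, 10.7 and 11.9 CPM and overlapped with the 11 to 13.7 CPM of WT. Its edgeR adjusted p was 0.0388 in the fit of 19 libraries and 0.152 with all 20, at log2 fold changes of -0.21 in both.

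Subunits of the clamp loader differed in both directions. Pcna was at 1017, 999 and 981 CPM in Mcu-/- macrophages, above all WT zymosan libraries (log2 fold change 0.42, edgeR adjusted p = 4.39e-18 with an SE of 0.03). Rfc3 was higher as well, at 13.5, 15 and 15.6 CPM against 9.0, 8.48, 8.77, 7.45 and 8.20 CPM (log2 fold change 0.81, edgeR adjusted p = 6.48e-11 with an SE of 0.09), and so was Rfc1 at a log2 fold change of 0.35. Rfc2, Rfc4 and Rfc5, subunits of the same complex, were lower. Rfc5 was at 8.48, 7.23 and 8.30 CPM against 18.5 to 22.0 CPM (log2 fold change -1.33, edgeR adjusted p = 4.21e-18 with an SE of 0.08). Of the polymerase genes, Pold3 was higher at 0.35, Pole, the catalytic subunit of polymerase epsilon, was lower at -1.26, and Pold1 and Pole2 were not called.

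Control, chromatin and repair genes were mostly lower. Ccne1 was at 7.36, 7.80 and 7.96 CPM, below every WT zymosan library (log2 fold change -1.60, edgeR adjusted p = 1.57e-18 with an SE of 0.09). E2f1 was at 22.0, 19.5 and 20.3 CPM against 23.9 to 28.7 CPM (log2 fold change -0.37, edgeR adjusted p = 1.04e-05 with an SE of 0.07). E2f2 and E2f8, an E2F that represses, had log2 fold changes of -1.07 and -0.97. Slbp, which binds histone mRNA, was the 1 chromatin gene that was higher (log2 fold change 0.32), while Uhrf1 was at 10.8, 9.27 and 10.1 CPM, below the 20.1 to 25.7 CPM of WT. Chaf1a was at 3.12, 1.53 and 2.54 CPM, Brca1 at 2.88, 3.11 and 2.98 CPM and Ung at 0.706, 0.961 and 0.696 CPM, all below WT. Log2 fold changes were -1.22 for Uhrf1, -1.29 for Chaf1a, -1.14 for Brca1 and -1.55 for Ung. Exo1 was at 0.177, 0.452 and 0.199 CPM, which stood for 3, 8 and 4 reads.

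**Figure D2:**
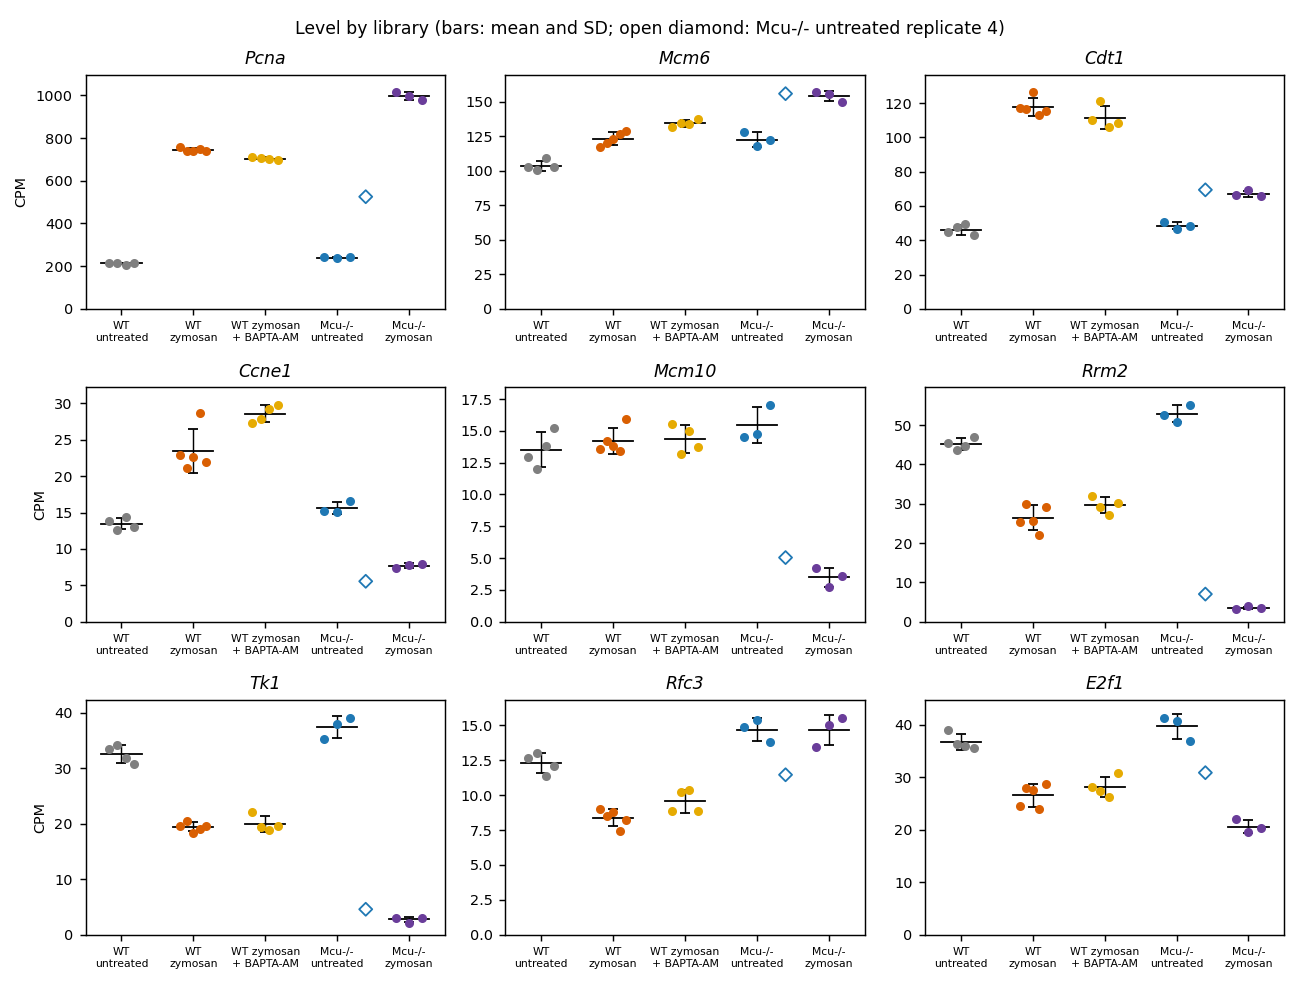
CPM of 9 members in every library by group, with the mean and SD of each group drawn as bars and Mcu-/- untreated replicate 4 as an open diamond outside its group. Pcna in Mcu-/- zymosan reaches 1017 CPM, Rrm2 there is at 3.90 CPM or less, and replicate 4 lies at 7.02 CPM for Rrm2 while replicates 1 to 3 lie at 50.9 to 55.2.

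Crossing the 2 comparisons, 28 members were lower with zymosan in WT and lower again in Mcu-/-, among them Orc1, Rrm2 and Exo1. Mcm6 and Pcna were higher in both. Cdt1, Rpa1 and Ccne1 were higher with zymosan and lower in Mcu-/-, while Mcm2, Rfc1, Rfc3, Pold3 and Slbp were lower with zymosan and higher in Mcu-/-. Another 7, among them Cdc6, Mcm4 and Gins3, were lower with zymosan and not called between genotypes. Both comparisons use the 5 WT zymosan libraries, and the share of all genes in each class was not counted, so these counts are a description.

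The zymosan response itself was larger in Mcu-/- macrophages when untreated replicates 1 to 3 were the baseline. Of the 50 members, 45 were lower and 3 higher than in these replicates, where 42.4% of all genes tested were lower and 39.2% higher (81.5% in either direction), and the median log2 fold change was -1.48. The 3 that rose were Pcna, Cdt1 and Mcm6, with log2 fold changes of 2.06, 0.47 and 0.33. With library totals the median of all genes was -0.59 in place of -0.05. Pcna alone then stayed higher, while Cdt1 and Mcm6 (-0.21) turned in sign. E2f2, Exo1 and Rrm2 fell by 4.64, 4.62 and 3.91 on the log2 scale. With 3 against 3 libraries an exact permutation p cannot go below 0.1. In a test of the difference between the responses, 39 members responded lower and 5 higher in Mcu-/- than in WT macrophages, beside 29.3% and 31.0% of all genes tested (60.3% in either direction), with a median difference of -0.84. With replicate 4 in its group these counts were 30 and 3, beside 20% and 15.2% of all genes, and those of the Mcu-/- response were 45 and 3, beside 39.4% and 34.3%. The difference was -3.13 for Rrm2 (edgeR adjusted p = 4.68e-23 with an SE of 0.12), -3.02 for Tk1 and -2.22 for Mcm10, and 0.56 for Rfc3, 0.34 for Rfc1 and 0.34 for Pold3. Pcna had a difference of 0.25 (edgeR adjusted p = 4.32e-07 with an SE of 0.04), which turned to -0.13 with replicate 4 included (adjusted p = 0.717). The difference for Mcm6 did not pass the test (0.08, edgeR adjusted p = 0.176 with an SE of 0.05).

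The size of that difference depended on the baseline. In untreated replicate 4 39 of the 50 members lay below all 7 other untreated libraries, 4 lay above and 7 within. Of the 36 members that were lower in Mcu-/- than WT macrophages with zymosan, 34 lay below all other untreated libraries in replicate 4, and 1 lay above. The share of all genes that lay outside the other untreated libraries was not counted. Replicate 4 differed from its group over all genes, so these counts only describe the members and cannot be called particular to them. Rrm2 was at 7.02 CPM in replicate 4, against 52.7, 50.9 and 55.2 CPM in replicates 1 to 3. Tk1 was at 4.56 CPM against 35.3, 38.0 and 39.1 CPM, and Mcm10 at 5.04 CPM against 14.5, 14.7 and 17 CPM. In each of these the single library was nearer to Mcu-/- macrophages with zymosan than to its own group. Ccne1 was at 5.55 CPM, under the 7.36 to 7.96 CPM of the zymosan libraries and the 15.1 to 16.6 CPM of replicates 1 to 3. The 4 that lay above were Pcna at 525 CPM, Mcm6 at 156 CPM, Cdt1 at 69.4 CPM and Rfc1 at 60.9 CPM.

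Measured from replicate 4, the median difference of mean log2 CPM of Mcu-/- zymosan was -0.55, and from replicates 1 to 3 it was -1.49, while that of WT zymosan from WT untreated was -0.62. Against the WT response, member by member, the response from replicate 4 was lower in 30 and higher in 20 members, with a median difference of -0.07. From replicates 1 to 3 it was lower in 43 and higher in 7, with a median difference of -0.86. These values rest on 1 library and have no test. Rrm2 differed by -1.0 from replicate 4 and -3.91 from replicates 1 to 3, and by -0.78 in WT. Tk1 differed by -0.76, -3.80 and -0.75 in the same order. Members differed in this: for E2f2, -3.55 from replicate 4 was also close to the -3.54 of WT, whereas for Ccne2 -0.06 from replicate 4 was far from the -1.02 of WT. The plot of the 3 differences by gene shows each member.

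Untreated Mcu-/- macrophages, by replicates 1 to 3, had slightly more RNA of these genes than WT ones. Of the 50 members 14 were higher and none was lower, beside 1.53% higher and 1.83% lower of all genes tested (3.35% in either direction), and 49 had a positive log2 fold change with a median of 0.20. The 14 included every subunit of the Mcm ring, Mcm2 to Mcm7, and Pcna, Rfc5, Lig1, Rrm1, Rrm2, Tk1, Uhrf1 and Ccne2. Among these 14, Ccne2 differed by the most, by 0.34 on the log2 scale (edgeR adjusted p = 0.00620 with an SE of 0.08), followed by Uhrf1 at 0.29 and Mcm4 at 0.25. Uhrf1 was at 52.6, 48.8 and 49.4 CPM against 41.0, 38.6, 43.7 and 41.3 CPM. Mcm6 was at 128, 117 and 122 CPM against 100.3 to 109 CPM (log2 fold change 0.24, edgeR adjusted p = 4.52e-05 with an SE of 0.04), and Rrm2 at 50.9 to 55.2 CPM against 43.7 to 47.1 CPM (0.23, edgeR adjusted p = 0.0183 with an SE of 0.06). The groups did not overlap in 25 members, which was not counted over all genes, and an exact permutation test of 3 against 4 libraries cannot go below 0.0571. Without Mcu-/- untreated replicate 3 the 14 became 7, and with replicate 4 in the group only Mcm6 kept its call, at 0.34 (edgeR adjusted p = 0.0204), beside 0.128% higher and 0.222% lower of all genes. With all 20 libraries the values of Rrm2, Rrm1 and Rfc5 turned to -0.12, -0.03 and -0.03. Of the 14 members, 10 were lower and 3 (Mcm2, Mcm6 and Pcna) higher in Mcu-/- than WT macrophages with zymosan. The like share of all genes was not counted.

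Differences with BAPTA-AM were small for most members. Against zymosan alone 14 members were higher and 1 lower, where 15.3% of all genes tested were higher and 16.5% lower (31.8% in either direction). The median log2 fold change was 0.09. The groups did not overlap in 9 members, which was not counted over all genes. With all 20 libraries in the fit the counts were 5 and 0 (6.43% and 6.33% of all genes). There Mcm2, Rfc1, Pold3, Slbp and Exo1 kept their call and Mcm3, Mcm4, Mcm6, Cdc45, Ccne1, Rrm2, Brca1, Prim2, Rpa2 and Pcna lost it. Library totals gave 22 and 0 (3037 higher and 1262 lower of the 11666 genes, so that all genes shifted upward too), and without BAPTA-AM replicate 2 the count of lower members was 2. Exo1 was the largest, at 1.76, 1.47, 1.4 and 2.12 CPM against 0.724 to 0.887 CPM with zymosan alone, or 2.13-fold higher (SE of the log2 fold change 0.21, edgeR adjusted p = 8.43e-05). It remained below the 5.05 to 6.53 CPM of untreated WT macrophages. Cdc45 was at 6.03, 5.57, 6.67 and 7.23 CPM against 4.5 to 5.35 CPM (log2 fold change 0.39, edgeR adjusted p = 0.00376 with an SE of 0.11), and Slbp at 23.7, 23.8, 25.2 and 24.5 CPM against 16.6 to 20.3 CPM (0.37, edgeR adjusted p = 4.78e-06 with an SE of 0.06). Neither overlapped with zymosan alone.

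Mcm2, Mcm3, Mcm4 and Mcm6 of the ring were higher with BAPTA-AM, at log2 fold changes of 0.24, 0.20, 0.19 and 0.12, and Mcm5 and Mcm7 were not called at 0.09 and 0.14. Ccne1 was higher at 27.4, 27.9, 29.3 and 29.8 CPM, although WT zymosan replicate 4 at 28.7 CPM lay among them (log2 fold change 0.29, edgeR adjusted p = 0.000627 with an SE of 0.07). Pcna was the 1 member that was lower, at 713, 705, 701 and 699 CPM against 738 to 757 CPM (log2 fold change -0.08, edgeR adjusted p = 0.00675 with an SE of 0.02). Rrm2 was called at 0.17, with 31.9, 29.2, 27.2 and 30.1 CPM overlapping with the 22.1 to 29.9 CPM of zymosan alone. Tk1, Mcm10, E2f1, Cdc6, Gins2, Rfc5, Rrm1, Uhrf1, Chaf1a, Ung, E2f2 and Cdt1 were not called, with log2 fold changes from -0.16 for Cdc6 to 0.29 for Chaf1a. Rfc1, Pold3 and Slbp, higher by 0.35, 0.35 and 0.32 in Mcu-/- macrophages with zymosan, were higher by 0.30, 0.24 and 0.37 with BAPTA-AM. Mcm2 and Mcm6 were also higher in both. Mcm3, Cdc45, Prim2, Rpa2, Rrm2, Ccne1, Brca1 and Exo1 were higher with BAPTA-AM and lower in Mcu-/- macrophages. Of all 50 members 36 were lower there, so this is a description and no sign of opposite effects. The share of all genes with this pair of calls was not counted. Both sets of values use the same WT zymosan libraries.

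**Figure D3:**
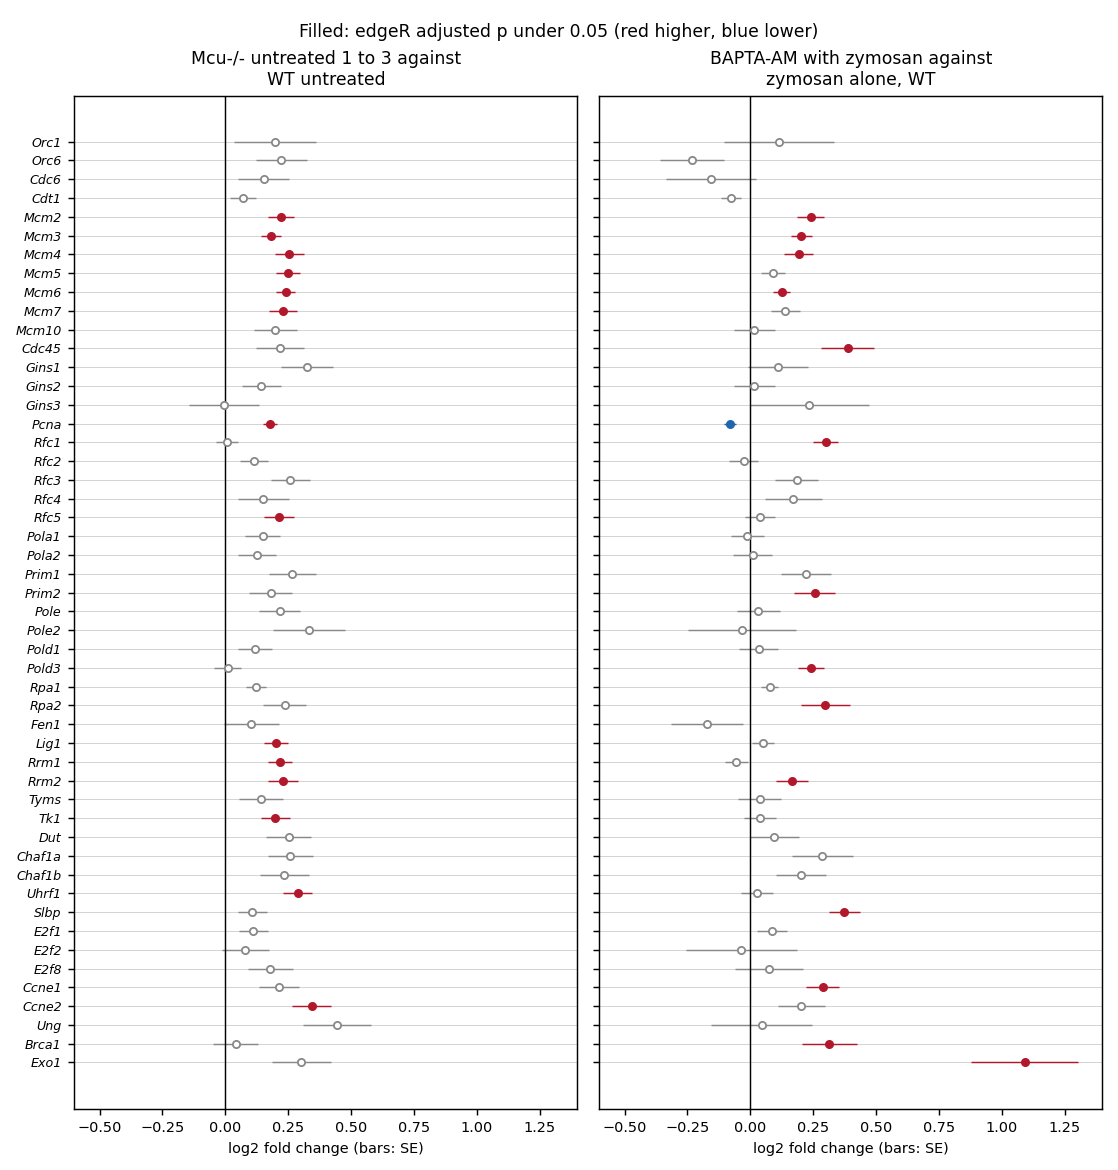
Log2 fold change of each member with its SE, on the left for untreated Mcu-/- replicates 1 to 3 against untreated WT and on the right for BAPTA-AM with zymosan against zymosan alone. Filled points passed an edgeR adjusted p under 0.05. On the left 49 of 50 points lie right of 0, and on the right Exo1 at 1.09 stands out from the others.

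Summed over the 50 members, the level hid these falls because of Pcna. The sum was 1546 ± 22.5 CPM (SD, n = 4) in WT untreated, 1824 ± 25.1 (n = 5) in WT zymosan, 1857 ± 27.8 (n = 4) with BAPTA-AM, 1759 ± 32.1 (n = 3) in Mcu-/- untreated and 1787 ± 30.9 (n = 3) in Mcu-/- zymosan. Without Pcna it was 1334 ± 24.5, 1079 ± 33.1, 1152 ± 24, 1519 ± 30.2 and 789 ± 13.4 CPM in the same order. Pcna was 13.7% ± 0.362 of the sum in WT untreated and 40.8% ± 1.02 in WT zymosan, and 13.7% ± 0.106 and 55.9% ± 0.148 in Mcu-/- macrophages. Replicate 4 had a sum of 1553 CPM, 1027 CPM without Pcna, and a Pcna share of 33.8%. Among the roles, the sum of the nucleotide supply genes had the lowest level relative to untreated WT in replicate 4, at 66.1 CPM against 204 ± 3.08 CPM.

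**Figure D4:**
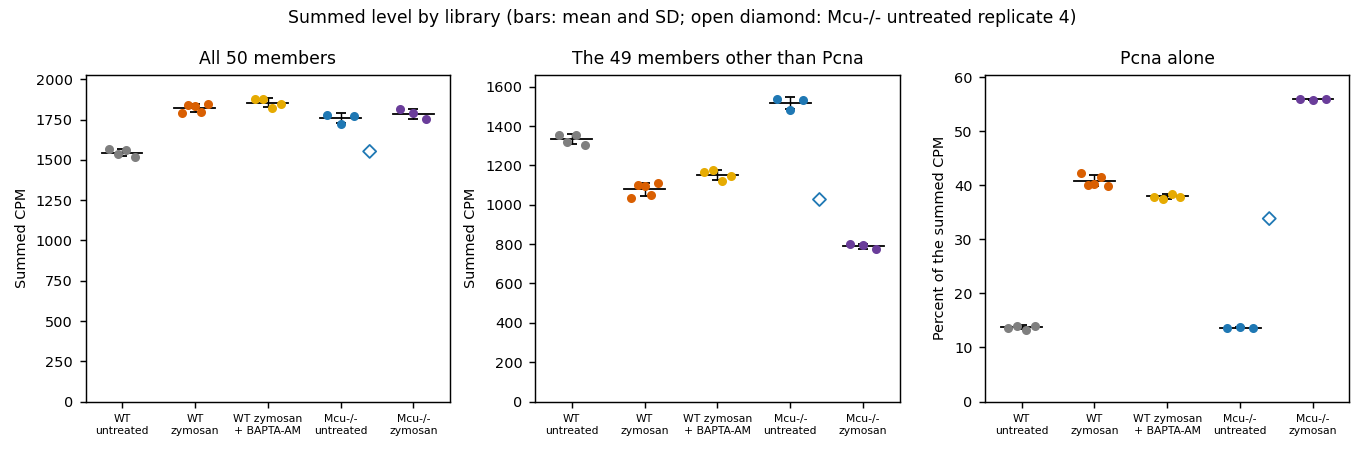
Summed CPM of all 50 members, of the 49 members without Pcna, and the percentage of the sum that is Pcna, in every library by group with the mean and SD as bars and replicate 4 as an open diamond. The middle panel separates Mcu-/- zymosan, at 773 to 799 CPM, from all other libraries, while the left panel does not.

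Neighbouring gene lists, written by hand and without a test of the list, set these values in context. Of 44 other replication genes, 27 were lower and 7 higher with zymosan in WT, beside 41.3% lower and 37.2% higher of all genes tested. In Mcu-/- against WT macrophages with zymosan 25 were lower and 6 higher, beside 33.7% and 36.4%. With Mcu-/- untreated 6 were higher and 0 lower, beside 1.53% and 1.83% of all genes. With BAPTA-AM 11 were higher and 4 lower, beside 15.3% and 16.5%. The 26 mitosis genes behaved differently between genotypes. Zymosan in WT lowered 23 and raised 1 of them at a median log2 fold change of -0.57, beside 41.3% lower and 37.2% higher of all genes. In Mcu-/- all 26 were lower than in WT with zymosan at a median of -3.10, beside 33.7% lower of all genes. Ccnb2, the cyclin of mitosis, was at 1.29, 1.36 and 1.59 CPM in Mcu-/- zymosan and 0.952 CPM in replicate 4, against 27.3 to 36.2 CPM in all other libraries. Mki67, a gene of dividing cells, was at 32.7, 22.3 and 28.9 CPM and 11.5 CPM, against 141 to 176 CPM elsewhere.

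Of 33 G1 regulators 32 were tested, and 9 were higher and 15 lower with zymosan in WT, where 37.2% of all genes were higher and 41.3% lower. Between genotypes with zymosan 9 were higher and 13 lower, where 36.4% of all genes were higher and 33.7% lower, and with BAPTA-AM 3 were higher and 13 lower, where the shares were 15.3% and 16.5%. Ccnd1, the D cyclin that opens G1, fell from 405 to 442 CPM in untreated WT macrophages to 64.3 to 83.7 CPM with zymosan (log2 fold change -2.44, edgeR adjusted p = 5.72e-36 with an SE of 0.04). In Mcu-/- macrophages with zymosan it was at 604, 606 and 611 CPM. Untreated Mcu-/- replicates 1 to 3 had 443, 405 and 413 CPM of Ccnd1, and replicate 4 had 935 CPM. The direction in Mcu-/- thus depended on the baseline, with log2 differences of 0.53 from replicates 1 to 3 and -0.62 from replicate 4. Cdkn1a, the p21 inhibitor that acts on cyclin E and binds Pcna, rose with zymosan in WT (log2 fold change 1.93, edgeR adjusted p = 3.27e-38 with an SE of 0.03), was higher again in Mcu-/- macrophages (0.90) and was lower with BAPTA-AM (-0.42). Cdkn2c, an inhibitor of the D-cyclin kinases, was lower in all 3 comparisons, at -1.14, -1.80 and -0.67.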

How the data were processed

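RNA-seq libraries of bone marrow-derived macrophages were analysed from 1 table of counts per gene. The authors deposited whole-number counts without normalization, which their methods say came from reads trimmed with cutadapt, aligned by STAR (mm10 assembly) and assigned to genes by HTSeq, and their own tests used DESeq2. Members were matched by symbol. Columns were assigned to groups by their names. The 3 Mcu-/- zymosan columns are numbered 3, 4 and 5 while the labels count from 1, so they are known by group only. The replicates are called biological, and nothing pairs them by animal, so p-values measure the spread between these libraries.

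Counts were filtered with filterByExpr, scaled with TMM and fitted in edgeR 4.0.16 (R 4.3.3, limma 3.58.1) by the quasi-likelihood test with 1 coefficient per group over 19 libraries, with Benjamini-Hochberg adjustment over all 11666 genes and a threshold of 0.05. Mcu-/- untreated replicate 4 was left out of this fit. Levels are CPM on TMM-scaled sizes of all 20 libraries. Permutation tests were exact and two-sided, doubling the one-sided p, on log2 CPM. Alternatives were all 20 libraries, DESeq2 1.42.0 size factors and Wald test, no filter beyond 1 count, the groups compared alone, a replicate block, leaving out each library, and library totals. Library totals for the fits, and the summed level without Pcna, were chosen after seeing the data. Genes with values in every library were Mcm6, Pcna, Cdc6, E2f1, Ccne1, Rrm2 and, in each role, the most abundant member and the one that differed most between genotypes with zymosan, and the 3 largest rises and falls of each comparison were named.

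The test was also tried on simulated data. The members, lists and tests were chosen with earlier results of these data known. Promoters are from RefSeq (GRCm38.p6), gene coordinates and exon lengths from GENCODE M21, both of the mm10 assembly. The E2f1 window lies inside the gene of GENCODE and is not shown.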

Additional observations from a re-analysis of the deposited data

Results flagged for a closer look

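In groups of 4 or 5 libraries, 9 of 64 tested sets of values had 1 library far from the others by Dixon's 95% limit. Chance alone gives this in about 1 of 20 independent sets. Most of the 9 came from replicate 4, which was already known to stand apart, so their number cannot be compared with chance. In Mcu-/- untreated replicate 4 the far values were Pcna at 525 CPM, Ccne1 at 5.55 CPM, Rrm2 at 7.02 CPM, Cdc45 at 5.36 CPM, Rfc5 at 10.6 CPM, Rrm1 at 44.9 CPM and Uhrf1 at 24.8 CPM. Ccne1 at 28.7 CPM in WT zymosan replicate 4 and Ung at 3.27 CPM in WT zymosan replicate 5 were also far from their groups.

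The zymosan response differed between genotypes by the test of the difference in 13 of the genes with values in every library. On the log2 scale, Mcu-/- minus WT, it was 0.25 for Pcna, -0.48 for E2f1, -1.81 for Ccne1, -3.13 for Rrm2, -2.22 for Mcm10, -0.35 for Gins2, -0.85 for Cdc45, -1.54 for Rfc5, -1.67 for Rrm1, -1.51 for Uhrf1, -1.55 for Chaf1a, -1.18 for Brca1 and -2.0 for Ung. The baseline for these values is Mcu-/- untreated replicates 1 to 3.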

How the results depend on the processing

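With all 20 libraries, Mcu-/- untreated against WT untreated gave 1 higher member, BAPTA-AM 5 higher and 0 lower, and the difference of the zymosan responses 3 higher. Library totals gave 3 higher for zymosan in WT, 1 higher for zymosan in Mcu-/-, and 22 higher and 0 lower for BAPTA-AM. Leaving out 1 library gave 5 to 6 higher and 40 to 40 lower for zymosan in WT, 7 to 7 and 35 to 37 for Mcu-/- against WT with zymosan, and 7 to 16 and 0 to 0 for Mcu-/- against WT untreated. It gave 11 to 16 and 1 to 2 for BAPTA-AM, 3 to 3 and 45 to 45 for zymosan in Mcu-/-, and 4 to 5 and 38 to 40 for the difference. The lowest count for Mcu-/- untreated, 7, was without its replicate 3, and the highest count of lower members with BAPTA-AM, 2, was without BAPTA-AM replicate 2. DESeq2's size factors, its Wald test, no filter and the groups compared alone kept all 12 counts within 1.5 times.

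Values turned in sign with library totals for Mcm6 with zymosan in WT (-0.24) and Mcu-/- (-0.21) and Mcm10 in WT (-0.41). Those of Pola1 and Rpa1 with zymosan in WT turned too, as did Cdt1, Rfc3 and Pold3 with zymosan in Mcu-/-. Among genes with values in every library, all 20 libraries turned Pcna in the difference (-0.13). The same fit turned Rrm2 (-0.12), Rfc5 (-0.026) and Rrm1 (-0.029) in untreated Mcu-/-. The summed level turned for zymosan in WT with library totals (-0.25), the mean of log2(CPM + 1) (-0.57) and Pcna left out (-0.31), and in Mcu-/- with the same (-0.52, -1.31 and -0.95). The cause was not tested.

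With the replicate number as a block, the counts were 5 higher and 40 lower for zymosan in WT, 14 and 0 for untreated Mcu-/-, and 15 and 1 for BAPTA-AM. Chaf1a with BAPTA-AM (0.39) and Ung in untreated Mcu-/- (0.49) gained a call. The numbers do not pair the libraries: deviations of 21 same-numbered pairs correlated at -0.117 to 0.083, and a library correlated best with its own number in 12 of 42 cases. No paired analysis was possible for comparisons with Mcu-/- zymosan because its columns carry other numbers than the labels.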
